A study of Mus musculus with 12 samples.

Results

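The caspases, the Bcl2 family and the regulators around them were followed in the cortex of aged E4FAD mice given n-6 docosapentaenoic acid (DPAn-6). The set was 34 genes, taken as the Ensembl identifiers that the GRCm38 annotation maps to a fixed list of symbols, of 50563 genes in the count table. All 34 were found and all 34 passed the filter on low counts, 26 of them pro-apoptotic and 8 anti-apoptotic. Of the 34 genes, 1 differed between the groups at an adjusted p below 0.05. That gene was Pmaip1, which encodes the BH3-only protein Noxa and was 3.29-fold higher in DPAn-6 than in CTRL mice (95% confidence interval 2.52 to 4.29, 7 CTRL and 5 DPAn-6 mice). The caspases, the executioner pores Bax and Bak1, and the anti-apoptotic Bcl2 members passed no adjusted test.

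All 12 mice carried human APOE4 on both alleles in place of mouse Apoe, on a C57/BL6 background, together with 1 copy of the 5xFAD transgenes, which model familial Alzheimer's disease. The 5xFAD transgenes use the Thy1 promoter and are expressed mainly in neurons. The 7 CTRL mice received vehicle by oral gavage, and the 5 DPAn-6 mice received DPAn-6 as its ethyl ester daily by oral gavage for 3 weeks. The antioxidants alpha-tocopherol and palmitoyl ascorbic acid were given to both groups. The CTRL mice were aged 12 months (2 mice) or 14 months (5 mice), as were the DPAn-6 mice (2 and 3 mice). Each mouse gave 1 library from the cortex, and no mouse without the transgenes or without APOE4 was compared here.

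Apoptosis runs by a pair of routes. In the mitochondrial route, BH3-only proteins such as Bim (Bcl2l11), Puma (Bbc3) and Noxa (Pmaip1) bind the anti-apoptotic Bcl2 proteins, the pore formers Bax and Bak1 then open the outer mitochondrial membrane, and released cytochrome c (Cycs) assembles with Apaf1 to activate caspase 9. In the death receptor route, Fadd brings caspase 8 to the receptor, where Cflar limits its activation and Ripk1 sets whether the outcome is survival or death. Much of this control acts on proteins, by cleavage and binding, and mRNA levels do not report it.

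Library totals lay between 15339098 and 19500154 counts for CTRL mice and between 15208803 and 26520251 for DPAn-6 mice. CTRL replicate 3 stood apart from the other libraries. It held the lowest value of all 12 mice in 13 of the 34 genes and the highest in 13 more, so that it was at an extreme in 26, against 0 to 10 genes in each other library. The genes it was lowest in had a median GC content of 53.7% in their longest transcript, and those it was highest in 41.9%. A trend on exon length and GC content accounted for 34.9% of the variance of its deviations over all genes, against 0.25% to 13.9% in the other libraries. Without it, 9 of the 34 genes had a log2 fold change of the other sign (Casp1, Casp12, Bax, Bok, Bbc3, Bnip3, Bcl2l13, Mcl1 and Xiap), and those values are given beside the genes.

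**Figure D1:**
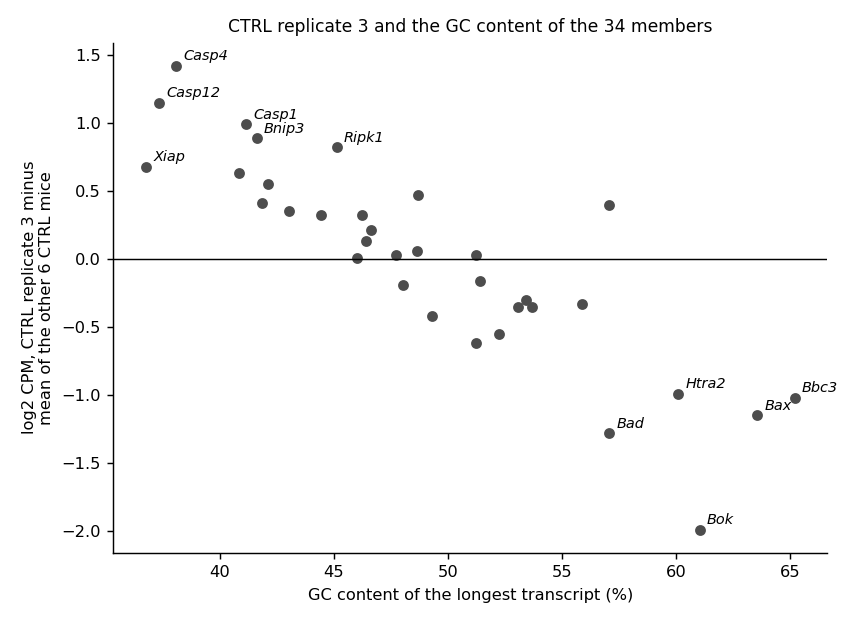
Difference in log2 CPM between CTRL replicate 3 and the mean of the other 6 CTRL mice (y axis) against the GC content in percent of the longest transcript (x axis), 1 point per gene of the 34. The GC-rich genes Bok, Bad and Bax lie below 0 and the GC-poor genes Casp4 and Casp12 above it.

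Microglial markers were lower in DPAn-6 mice, with 12 of 12 below 0 in log2 fold change and 9 of them at an unadjusted p below 0.05 (median −0.48). Their summed level was 1241 to 1846 CPM in CTRL and 840 to 1225 CPM in DPAn-6 mice. Choroid plexus markers were also lower (4 of 4 tested), with a sum of 12.8 to 1663 CPM in CTRL and 7.4 to 23.1 CPM in DPAn-6. Meningeal fibroblast markers were lower in 7 of 7 (5 at an unadjusted p below 0.05, median −0.66), with a sum of 189 to 308 CPM in CTRL and 136 to 206 CPM in DPAn-6. Markers of pericytes and smooth muscle were lower in 7 of 7 (304 to 348 against 269 to 287 CPM), and those of astrocytes in 8 of 10 (7417 to 11384 against 6666 to 8244 CPM). Oligodendrocyte markers were higher in 7 of 10, 5 of them at an unadjusted p below 0.05 (5246 to 6961 CPM in CTRL and 6163 to 7020 CPM in DPAn-6). Neuronal markers summed to 13528 to 17952 CPM in CTRL and 13953 to 14577 CPM in DPAn-6 mice. All 10 were detected, as the labelled cortex calls for. Striatal markers were higher in 6 of 6, 1 at an unadjusted p below 0.05 (121 to 440 CPM in CTRL and 148 to 319 CPM in DPAn-6). Blood markers were lower in 6 of 6 tested, 1 at that threshold (24 to 35.2 against 13 to 45.4 CPM). Of all genes, 9.02% were lower and 5.51% higher at an unadjusted edgeR p below 0.05. In whole cortex, fewer cells of a type and less RNA per cell cannot be told apart. The part of these markers in the results below was not tested, although some values with such markers as a covariate are given. The summed microglial levels did not overlap between the groups, so a fit with those markers as a covariate cannot separate them from treatment.

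The unit of level is log2 CPM, in which each count plus 0.5 is scaled to a common library total and put on a log2 scale. Differences are log2 fold changes from edgeR's quasi-likelihood test, DPAn-6 minus CTRL. Over all 15688 genes tested, 1.55% passed an adjusted p of 0.05, 0.408% higher and 1.14% lower in DPAn-6. Of the 34 apoptosis genes, 1 passed, higher in DPAn-6, and none passed in the other direction. At an unadjusted p below 0.05, 14.5% of all genes passed (5.51% higher and 9.02% lower), and among the 34 there was 1 higher (Pmaip1) and 3 lower (Birc6, Cflar and Ripk1). The median log2 fold change was −0.05 for the 34 genes, with 21 below 0, beside −0.0047 for all genes, of which 51.3% were below 0. The pro-apoptotic genes had a median of −0.04, with 16 of 26 lower, and the anti-apoptotic genes −0.07, with 5 of 8 lower. Without CTRL replicate 3 the medians were −0.07 and 0.03, so the anti-apoptotic median changed sign. Casp4 did not pass the filter on low counts there.

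Leaving out CTRL replicate 3 brought 6.1% of all genes past an adjusted p of 0.05, and Pmaip1 was again the 1 member called. At an unadjusted p below 0.05 there were then 2 members higher (Pmaip1 and Bnip3l) and 3 lower (Bad, Birc6 and Cflar), beside 10.7% of all genes higher and 12.5% lower. In 14-month mice alone, with 5 CTRL and 3 DPAn-6 mice, 0.0564% of all genes passed the adjusted test and Pmaip1 among them. It was also the 1 member at an unadjusted p below 0.05 there, where 8.96% of all genes passed (3.6% higher and 5.36% lower).

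**Figure D2:**
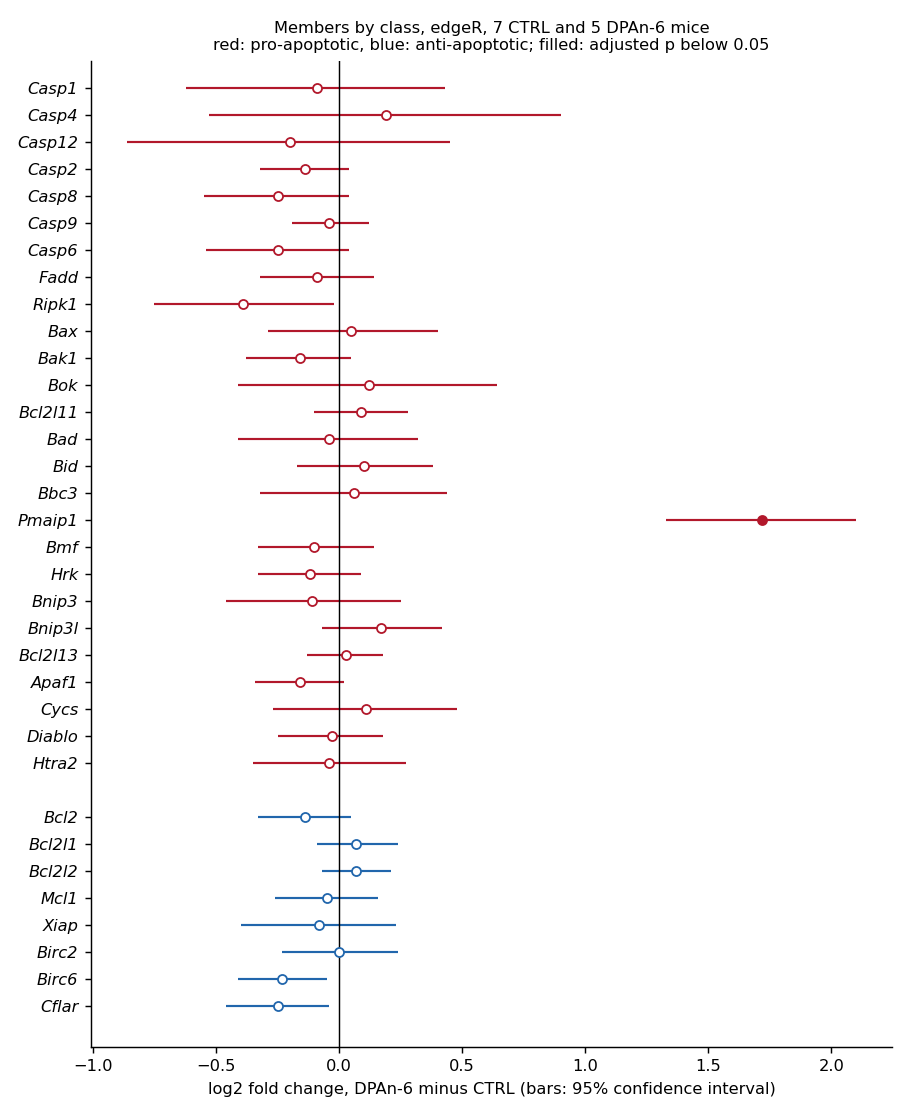
Log2 fold change (DPAn-6 minus CTRL, x axis) of the 34 genes with 95% confidence intervals from edgeR, 7 CTRL and 5 DPAn-6 mice. Pro-apoptotic genes are red, anti-apoptotic genes blue, and a filled point has an adjusted p below 0.05. Pmaip1 at 1.72 is the only filled point, and the intervals of 30 of the 34 genes include 0.

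Among the 7 BH3-only genes, Pmaip1 was the one past the adjusted threshold. It lies on chromosome 18. In CTRL mice Pmaip1 was at 1.19 log2 CPM in the lowest mouse, 1.56 at the median and 2.09 in the highest. In DPAn-6 mice it was at 3.12, 3.35, 3.94, 3.24 and 3.08 log2 CPM in replicates 1 to 5. Every DPAn-6 mouse was above every CTRL mouse, and the nearest mice of the 2 groups were 0.98 log2 units apart. Of all genes, 1.73% lay higher in every DPAn-6 mouse, by a gap of any size. No member lay lower in every DPAn-6 mouse than in every CTRL mouse, as 1.49% of all genes did. The group levels were 1.63 ± 0.30 (SD, n = 7) and 3.35 ± 0.35 log2 CPM (SD, n = 5). By edgeR, Pmaip1 had a log2 fold change of 1.72 (standard error 0.18, adjusted p = 0.000489), the third smallest p of all genes tested, after Ahnak and Fmo2. The exact permutation p was 0.00126, the smallest these groups allow. Counts ran from 35 to 65 in CTRL and from 143 to 305 in DPAn-6 mice.

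At both ages the Pmaip1 levels of the groups did not overlap. Among 12-month mice, CTRL ranged from 1.53 to 1.87 and DPAn-6 from 3.24 to 3.94 log2 CPM, with 2 mice in each group and no test. Among 14-month mice, CTRL ranged from 1.19 to 2.09 and DPAn-6 from 3.08 to 3.35 log2 CPM, and the log2 fold change was 1.54 (adjusted p = 0.0386). The interaction of treatment with age was −0.40 (standard error 0.37, edgeR adjusted p = 0.905). Without CTRL replicate 3 the log2 fold change was 1.81, and without DPAn-6 replicate 3, the highest mouse, it was 1.53. With the mean of the microglial markers as a covariate it was 1.34 (standard error 0.28, unadjusted p = 0.000354, adjusted p = 0.381). With Ttr, a choroid plexus transcript, as a covariate it was 1.56 (adjusted p = 0.0339).

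**Figure D3:**
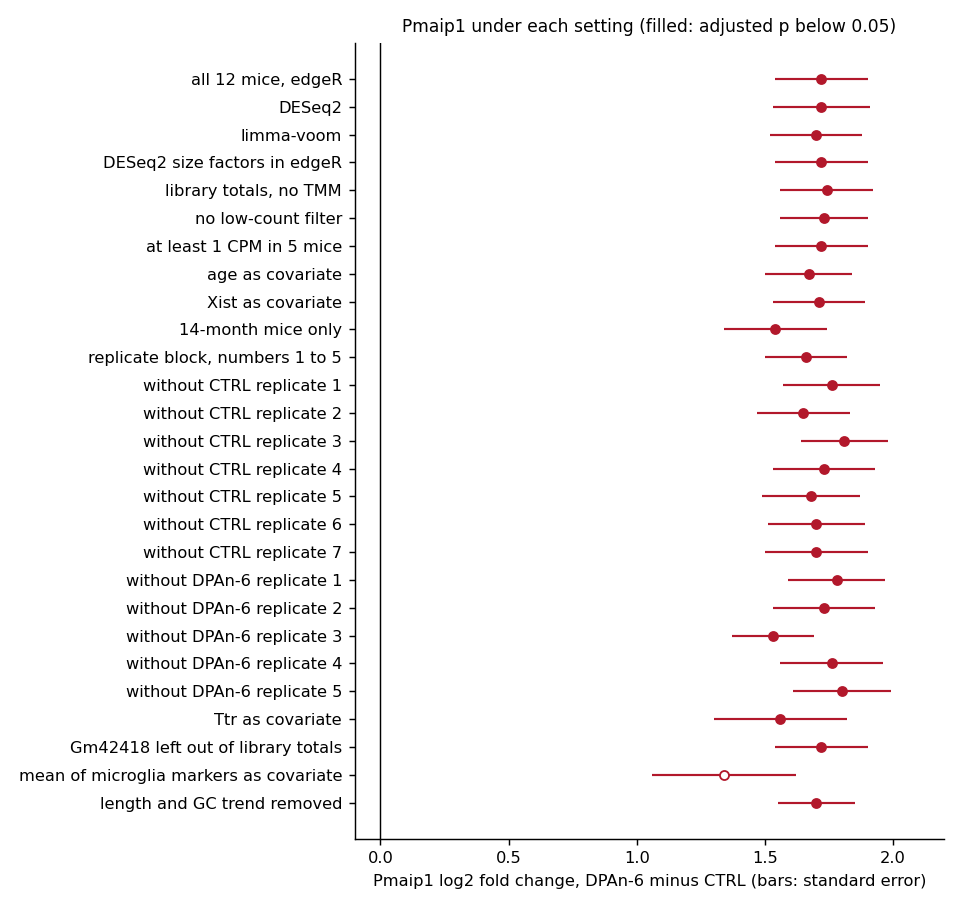
Pmaip1 log2 fold change, DPAn-6 minus CTRL (x axis, bars show the standard error), with all 12 mice and under each alternative, where a filled point has an adjusted p below 0.05. The values lie between 1.34 and 1.81, and the open point is the fit with the mean of the microglial markers as a covariate.

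The other 6 BH3-only genes had log2 fold changes from −0.12 to 0.10 and none passed an unadjusted test. Bid, which caspase 8 cleaves, was at 2.94 ± 0.27 log2 CPM (SD, n = 7) in CTRL against 3.07 ± 0.18 with DPAn-6 (SD, n = 5). Bbc3 (Puma) was at 2.28 ± 0.41 and 2.37 ± 0.30, with a log2 fold change of 0.06, or −0.04 without CTRL replicate 3, and Bcl2l11 (Bim) at 3.04 ± 0.12 and 3.15 ± 0.10. Hrk, a BH3-only gene of neurons, was at 5.32 ± 0.19 in CTRL and 5.22 ± 0.16 in DPAn-6. Bad and Bmf, which are held in check by phosphorylation and by the cytoskeleton respectively, had log2 fold changes of −0.04 and −0.10. Bad was at −0.16 without CTRL replicate 3, with an unadjusted edgeR p of 0.0449 and an adjusted p of 0.205, where 23.1% of all genes passed the unadjusted threshold.

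None of the pore formers passed a test. Bax (chromosome 7, 45461697 to 45466898) was at 3.24 log2 CPM in the lowest CTRL mouse, replicate 3, 4.41 at the median and 4.48 in the highest. In DPAn-6 mice it was at 4.60, 4.20, 4.28, 4.13 and 4.47. The DPAn-6 values lay within the CTRL range apart from replicate 1, the highest of the 12 mice. Bax had a log2 fold change of 0.05 (standard error 0.16, edgeR adjusted p = 0.924, exact permutation p = 0.812), and without CTRL replicate 3 it was −0.06. Bak1 had a log2 fold change of −0.16 and Bok, a pore former of less settled function, 0.12, with a 95% confidence interval from −0.41 to 0.64. Bok was at 2.97 log2 CPM in CTRL replicate 3 and at 4.70 or more in every other mouse, and without that mouse its log2 fold change was −0.04.

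Promoter stretches of the family were scanned for the binding motif of p53, a known activator of several of its genes. Pmaip1, Htra2 and Bnip3l were not scanned. In the 250 bases before the start of each gene in RefSeq's GRCm38.p6 annotation, 44 promoters of the other 31 members were read, and the p53 half-site consensus was found on either strand in 2 of them, those of Bax and Bmf, against 7.13% of all 32851 promoters. The cyclic AMP response element TGACGTCA was found in the promoters of Birc2 and Cycs, against 1.55% of all promoters. A further motif, the E-box CACGTG, was found in 4 of the 44 promoters, against 6.02% of all promoters. Those were of Bax, Bbc3, Bnip3 and Casp1, and their E-box windows are not shown. The windows are shown 5′ to 3′ on the strand of the gene with the motif in capitals, the first pair for p53 and the second pair for the response element, as the members in which a match was seen.
Bax, chr7:45467080-45467109: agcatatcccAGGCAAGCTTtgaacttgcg
Bmf, chr2:118544781-118544810: cccaagtgaaGGGCTTGCCTcttgccgaat
Birc2, chr9:7837074-7837103: tgcgcgtctgcTGACGTCAcctcaacggcc
Cycs, chr6:50566720-50566749: aggccagagggTGACGTCAcgcacgtccac
None of the 4 genes with a window shown passed a test between the groups. Their log2 fold changes were 0.05 for Bax, −0.10 for Bmf, 0.00 for Birc2 and 0.11 for Cycs. The Bmf window lies within the annotated bounds of the gene, 118528757 to 118549687, ahead of an internal start site. A match describes the letters only.

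The anti-apoptotic Bcl2 members oppose the pore formers, and none of the 4 passed a test. Bcl2 (chromosome 1, 106538178 to 106714274) was at 4.74, 4.83 and 5.15 log2 CPM in the lowest, median and highest CTRL mouse. In DPAn-6 mice Bcl2 was at 4.79, 4.79, 4.58, 4.87 and 4.82. The ranges overlapped, although all 5 DPAn-6 values were below the CTRL mean of 4.88. The highest CTRL value was that of replicate 3. Without it the CTRL mean was 4.83, and DPAn-6 replicate 4 at 4.87 lay above that. Bcl2 had a log2 fold change of −0.14 (standard error 0.09, 95% confidence interval −0.33 to 0.05, edgeR adjusted p = 0.529, exact permutation p = 0.203), or −0.08 without CTRL replicate 3. Mcl1, the partner that Noxa binds most strongly, was at 6.28 ± 0.19 log2 CPM (SD, n = 7) in CTRL against 6.26 ± 0.07 with DPAn-6 (SD, n = 5), with a log2 fold change of −0.05, or 0.03 without CTRL replicate 3. Bcl2l1 (Bcl-xL) and Bcl2l2 (Bcl-w), survival proteins present in adult neurons, had log2 fold changes of 0.07 each.

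Differences between paired members within a mouse are given with no test. The log2 CPM of Pmaip1 minus that of Mcl1 was −4.65 ± 0.18 (SD, n = 7) in CTRL against −2.91 ± 0.35 with DPAn-6 (SD, n = 5). The highest CTRL mouse was at −4.35 and the lowest DPAn-6 mouse at −3.12, so the ranges did not overlap. Mcl1 itself had a log2 fold change of −0.05, so this separation restates that of Pmaip1 and is not a further result. Bax minus Bcl2 was −0.66 ± 0.56 in CTRL and −0.44 ± 0.22 in DPAn-6 mice. CTRL replicate 3 was at −1.92, and without it the CTRL value was −0.45 ± 0.08 (SD, n = 6). Casp8 minus Cflar was −2.69 ± 0.31 in CTRL and −2.69 ± 0.10 in DPAn-6 mice.

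The mitophagy receptors Bnip3, Bnip3l and Bcl2l13, which tag damaged mitochondria for removal, had log2 fold changes of −0.11, 0.17 and 0.03. Bnip3 and Bcl2l13 were at 0.07 and −0.02 without CTRL replicate 3. Bnip3l was at 5.63 ± 0.27 log2 CPM (SD, n = 7) in CTRL against 5.85 ± 0.10 with DPAn-6 (SD, n = 5), with all 5 DPAn-6 mice above the CTRL mean. Its log2 fold change was 0.25 without CTRL replicate 3 (edgeR adjusted p = 0.12). The apoptosome genes Apaf1 and Cycs had log2 fold changes of −0.16 (edgeR adjusted p = 0.428) and 0.11. Cycs has many near-identical processed copies in the genome, so its counts are uncertain. Diablo and Htra2, which are released from mitochondria and block the inhibitor of apoptosis proteins (IAPs), were at −0.03 and −0.04.

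Of the IAP genes, Birc6 was lower at an unadjusted p below 0.05, and Xiap and Birc2 were not. Birc6 (chromosome 17, 74528295 to 74703356) encodes a very large ubiquitin ligase that restrains caspases. It was at 7.49, 7.80 and 7.98 log2 CPM in the lowest, median and highest CTRL mouse. In DPAn-6 mice Birc6 was at 7.49, 7.78, 7.62, 7.58 and 7.45. All 5 DPAn-6 mice lay below the CTRL mean of 7.78, but their range overlapped that of CTRL. Birc6 had a log2 fold change of −0.23 (standard error 0.09, edgeR p = 0.0177, adjusted p = 0.221, exact permutation p = 0.0417). After each library's trend on exon length and GC content was removed Birc6 was at −0.05 (adjusted p = 0.691). Birc6 has 25772 bases of exon, the longest of the 34 genes. Xiap, the direct inhibitor of caspases 3, 7 and 9, had a log2 fold change of −0.08, or 0.04 without CTRL replicate 3, and Birc2 0.00.

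In the death receptor arm, Cflar and Ripk1 were lower at an unadjusted p below 0.05. Cflar (chromosome 1, 58711508 to 58758884), which encodes the caspase 8 inhibitor cFLIP, was at 4.40, 4.69 and 4.90 log2 CPM in the lowest, median and highest CTRL mouse. In DPAn-6 mice Cflar was at 4.39, 4.49, 4.28, 4.44 and 4.44. Among treated mice, 2 lay below every CTRL mouse and 3 at the low end of the CTRL range. Cflar had a log2 fold change of −0.25 (standard error 0.10, edgeR p = 0.0207, adjusted p = 0.237, exact permutation p = 0.0303). With the mean of the microglial markers as a covariate it was −0.20 (adjusted p = 0.867), in a fit where 0 of all genes passed. With Ttr as a covariate the Cflar log2 fold change was −0.10 (adjusted p = 1).

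Ripk1 (chromosome 13, 34002363 to 34037147), the kinase at the branch between survival, apoptosis and necroptosis, was at 2.19, 2.48 and 3.28 log2 CPM in the lowest, median and highest CTRL mouse. In DPAn-6 mice Ripk1 was at 2.31, 2.28, 2.34, 2.25 and 2.12. The highest CTRL value was that of replicate 3, and all DPAn-6 mice lay below the CTRL mean of 2.58. Ripk1 had a log2 fold change of −0.39 (standard error 0.17, edgeR p = 0.0404, adjusted p = 0.314, exact permutation p = 0.0556). Leaving out that mouse gave −0.23 (adjusted p = 0.235). Fadd, the adaptor that recruits caspase 8, was at 2.02 ± 0.11 log2 CPM (SD, n = 7) in CTRL against 1.96 ± 0.13 with DPAn-6 (SD, n = 5).

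The caspases were compared next, with Casp2, Casp6 and Casp8 as the genes the study singled out. None passed an adjusted test, and the 3 initiators Casp2, Casp8 and Casp9 and the executioner Casp6 all had log2 fold changes below 0. Casp2 (chromosome 6, 42264985 to 42282508), an initiator that responds to DNA damage, was at 3.46, 3.50 and 3.62 log2 CPM in the lowest, median and highest CTRL mouse. In DPAn-6 mice Casp2 was at 3.23, 3.59, 3.40, 3.36 and 3.39. DPAn-6 replicate 2 sat at the top of the CTRL range and the other 4 lay below every CTRL mouse. Casp2 had a log2 fold change of −0.14 (standard error 0.08, edgeR p = 0.114, adjusted p = 0.481, exact permutation p = 0.053).

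Casp6 (chromosome 3, 129901425 to 129914103), an executioner that cleaves lamins and, in axons, tubulin and tau, was at 1.56, 1.78 and 2.18 log2 CPM in the lowest, median and highest CTRL mouse. In DPAn-6 mice Casp6 was at 1.54, 1.83, 1.61, 1.45 and 1.39. Replicate 2 was again the highest DPAn-6 mouse, and 3 of the 5 lay below every CTRL mouse. Casp6 had a log2 fold change of −0.25 (standard error 0.14, edgeR p = 0.0898, adjusted p = 0.438, exact permutation p = 0.0694). Without DPAn-6 replicate 2, Casp2 and Casp6 had log2 fold changes of −0.19 and −0.31 with unadjusted edgeR p of 0.0494 and 0.0457. For each gene this was the only 1 of 27 alternatives with an unadjusted p below 0.05. Their adjusted p fell no lower than 0.364 for Casp2 and 0.339 for Casp6 in any alternative.

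Casp8 (chromosome 1, 58795374 to 58847503), the initiator of the death receptor route, was at 1.61, 1.96 and 2.30 log2 CPM in the lowest, median and highest CTRL mouse. In DPAn-6 mice Casp8 was at 1.62, 1.94, 1.58, 1.64 and 1.79. The ranges overlapped, and 1 of 5 lay below every CTRL mouse. Casp8 had a log2 fold change of −0.25 (standard error 0.14, edgeR p = 0.0906, adjusted p = 0.439, exact permutation p = 0.102). Over the alternatives it ranged from −0.42 with Ttr as a covariate (unadjusted p = 0.027, adjusted p = 0.658) to −0.10 among 14-month mice (adjusted p = 0.886). Without CTRL replicate 5 it was −0.30 (unadjusted p = 0.0457, adjusted p = 0.36). Casp9, the caspase of the apoptosome, was at 5.07 ± 0.15 log2 CPM (SD, n = 7) in CTRL against 5.06 ± 0.03 with DPAn-6 (SD, n = 5), with a 95% confidence interval of −0.19 to 0.12 on the log2 fold change.

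The inflammatory caspases, of which Casp1 and Casp4 cleave gasdermin D, had few counts. Casp1 was at 1.73 ± 0.47 and 1.69 ± 0.43 log2 CPM. Casp4 held 5 to 16 counts per mouse and Casp12 9 to 31, and their log2 fold changes of 0.19 and −0.20 had 95% confidence intervals of −0.53 to 0.90 and −0.86 to 0.45. The intervals are wide, and changes of any size within them remain possible. CTRL replicate 3 was the highest of the 12 mice for all 3 genes, and without it Casp1 had a log2 fold change of 0.09 in place of −0.09 and Casp12 of 0.02.

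**Figure D4:**
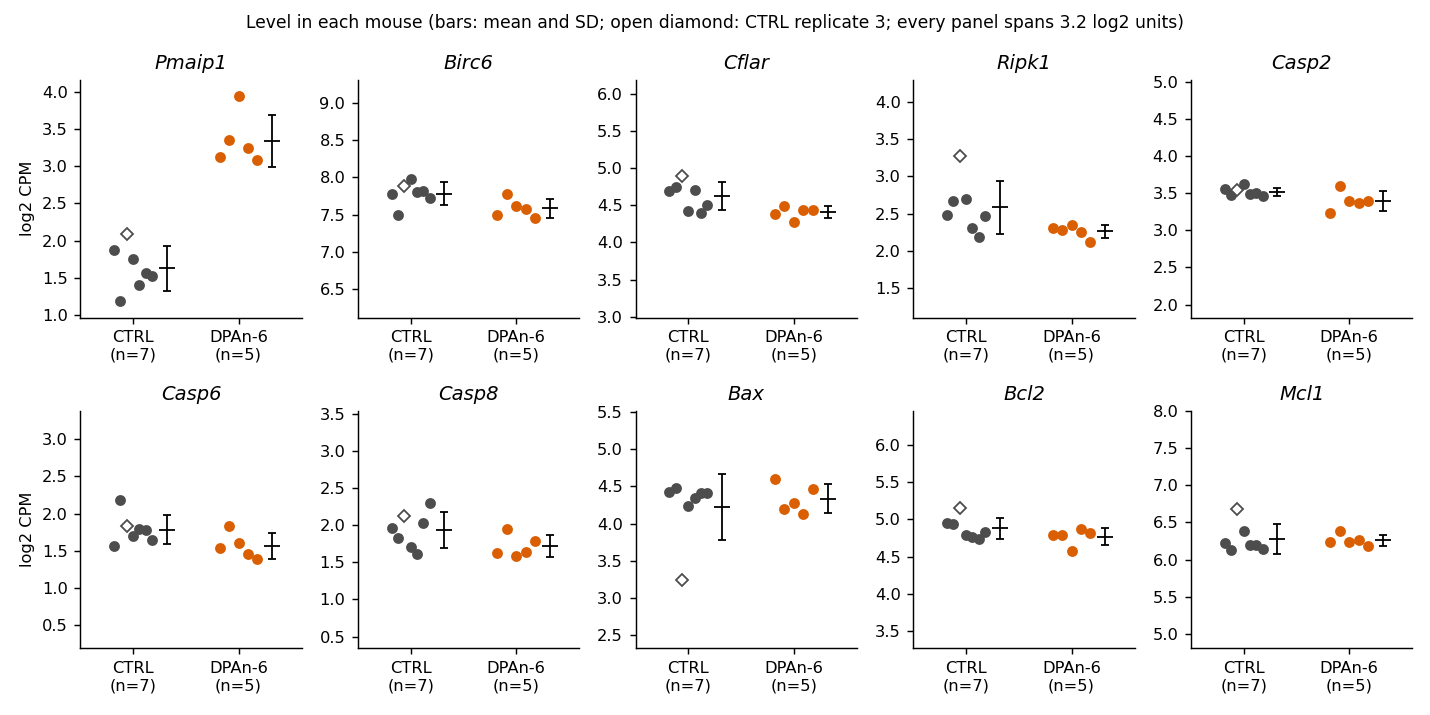
Level of 10 genes in each mouse in log2 CPM (y axis), with CTRL mice in grey, DPAn-6 mice in orange and the mean with SD beside each group. The open diamond is CTRL replicate 3, and every panel spans the same height in log2 units. Pmaip1 is separated by group, while the ranges overlap in the other 9 panels.

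The study correlated Cd68 with Casp2 and Casp8, and Casp2 with Vgf and Nptx2. Those pairs were computed across the 12 mice, and Cd68 with Casp6 was added here, 5 pairs in all. Casp8 rose with the microglial gene Cd68 across all mice (Pearson r = 0.655, permutation p = 0.02, adjusted p = 0.0334, Spearman rho = 0.706, p = 0.0128). Centred on each group's mean, r was 0.495 (permutation p = 0.0865), and without the 2 mice farthest out in Cd68, DPAn-6 replicates 3 and 4, it was 0.532. The pooled r was 0.585 without CTRL replicate 3 (permutation p = 0.0599) and 0.596 without DPAn-6 replicate 3 (permutation p = 0.054). With 1 mouse left out at a time it ran from 0.585 to 0.742. Its permutation p was thus below 0.05 only with both of those mice kept. Casp2 and Cd68 gave r = 0.559 (permutation p = 0.0596) and, centred, 0.247 (p = 0.562). Casp6 and Cd68 gave r = 0.426 (permutation p = 0.169) and, centred, 0.0514. Casp2 fell with Nptx2, a secreted synaptic protein, with r = −0.73 (permutation p = 0.00612, adjusted p = 0.0229), and with the neuropeptide precursor Vgf, with r = −0.715 (permutation p = 0.00915, adjusted p = 0.0229). Centred on the group means these were −0.57 and −0.527 (adjusted permutation p = 0.123 for both). Within the 7 CTRL mice, r was −0.761 for Nptx2 (exact permutation p = 0.0472) and −0.636 for Vgf (exact permutation p = 0.127). Without DPAn-6 replicate 1 the pooled r for Nptx2 was −0.598 (permutation p = 0.0562). After centring, none of the 5 pairs passed an adjusted p of 0.05.

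Levels can be compared between genes only per length of exon. In CTRL mice, Casp4 was lowest at 0.130 CPM per kb of exon and Casp12 next at 0.281, followed by Casp6 at 0.616 and Ripk1 at 0.736. The highest was Bcl2l2 at 30.2 ± 2.64 CPM per kb (SD, n = 7), then Bcl2l1 at 22.9 ± 2.49 and Mcl1 at 22.9 ± 3.36, which did not differ beyond their spread. The anti-apoptotic Bcl2 genes thus sat above every pro-apoptotic gene by level per kb, apart from Bcl2 itself at 3.23. Pmaip1 lay near Cycs and Bmf in CTRL mice, at 1.14 ± 0.245 CPM per kb (SD, n = 7), and between Bcl2 and Diablo in DPAn-6 mice, at 3.81 ± 1.04 (SD, n = 5).

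**Figure D5:**
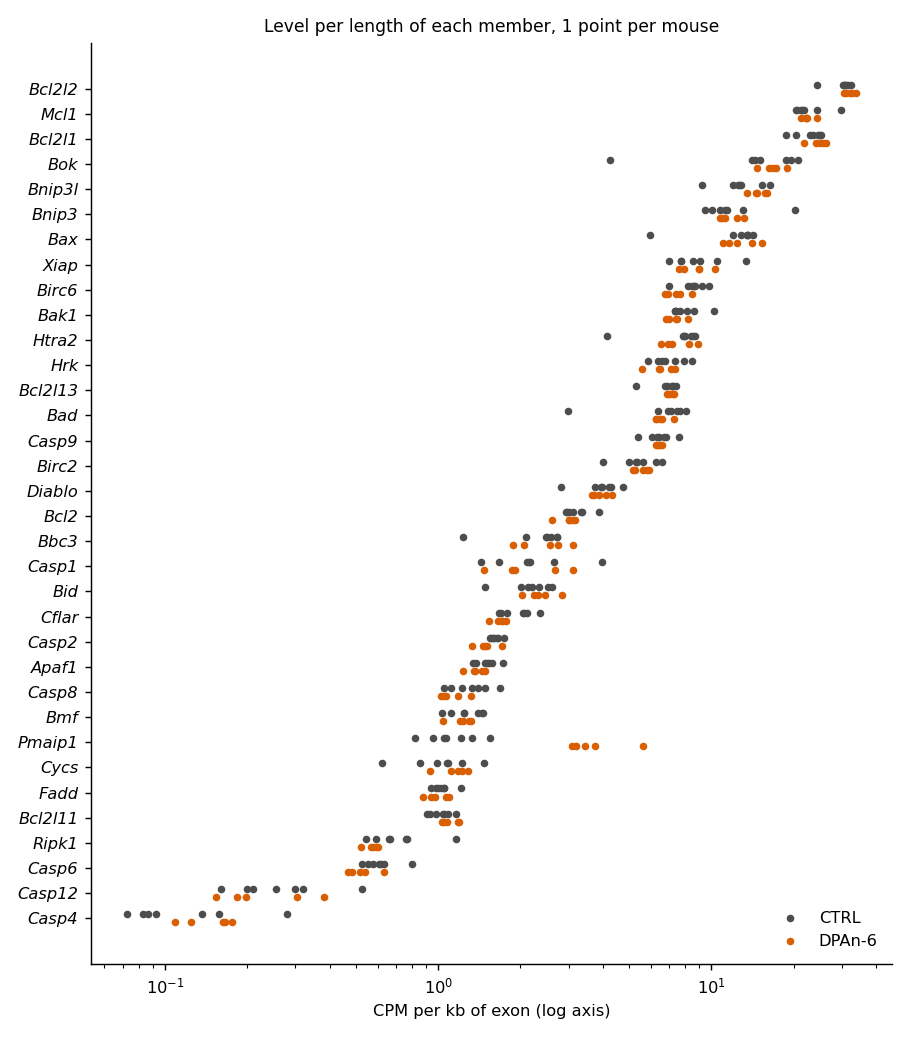
Level per length of the 34 genes in CPM per kb of exon (x axis, log scale), 1 point per mouse, CTRL in grey and DPAn-6 in orange, ordered by the CTRL mean. Bcl2l2, Mcl1 and Bcl2l1 lie at the top and Casp12 and Casp4 at the bottom, and Pmaip1 is the only gene with no overlap between the groups.

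Other genes of the pathway were taken from 5 lists of 72 genes, of which 57 passed the filter on low counts. By edgeR and by limma-voom 0 passed an adjusted p of 0.05, by DESeq2 1 did (Perp), and at an unadjusted edgeR p below 0.05 there were 3 higher and 5 lower, 8 in all, beside 14.5% of all genes (5.51% higher and 9.02% lower). Of 15 genes of p53 and its targets, Perp, a membrane protein of desmosomes, had a log2 fold change of −0.57 (edgeR adjusted p = 0.0712), Cdkn1a, the cell cycle inhibitor p21, 0.51 (adjusted p = 0.185), and Trp53inp1 −0.31. The list median was −0.03, with 9 of 15 lower. Both Cdkn1a and Perp passed the adjusted test without CTRL replicate 3, in opposite directions, where 6.1% of all genes passed. Over the 5 lists, 1 gene passed higher and 2 lower there, of 57 tested.

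Of 14 death receptor genes tested of 16 listed, Tnfaip3 (A20), a brake on signalling from the tumour necrosis factor receptor, had a log2 fold change of −0.35 (adjusted p = 0.201), Tnfsf10 (TRAIL) −0.32 and Pidd1, which activates caspase 2, −0.44. Tnfaip3 passed the adjusted test without CTRL replicate 3, as 6.1% of all genes did. The median of the 14 death receptor genes was 0.00, with 7 lower and 7 higher. The ligands Fasl and Tnf, with 0 to 6 counts per mouse, did not pass the filter on low counts, and their exact permutation p were 0.629 and 0.0391. A further list held 10 genes around the execution of apoptosis, not all of which promote it. All 10 had log2 fold changes above 0, with a median of 0.11. Without CTRL replicate 3, 6 of 10 did, with a median of 0.05. The mitochondrial channels Vdac2 and Vdac3 were at 0.22 (edgeR adjusted p = 0.169) and 0.16, and Aifm1, the apoptosis-inducing factor, at 0.17. Of 10 other Bcl2 and IAP family members tested of 18 listed, Naip2 had −0.47 (edgeR adjusted p = 0.259) and Aven 0.15. Of 8 genes of the inflammasome, pyroptosis and necroptosis tested of 13 listed, Gsdmd, which forms the pores of pyroptosis, had −0.29 (edgeR adjusted p = 0.439), and Ripk3, Mlkl and Il1b did not pass the filter on low counts. Mlkl, the pore former of necroptosis, held 1 to 12 counts per mouse and was at −1.45 ± 0.52 log2 CPM in 7 CTRL and −2.77 ± 0.70 in 5 DPAn-6 mice (SD), with all 5 DPAn-6 mice below the CTRL mean (exact permutation p = 0.00631, unadjusted). Ripk3 and Il1b had exact permutation p of 0.404 and 0.837, and Mlkl was chosen after its values were seen.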

How the data were processed

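RNA-Seq of the cortex was measured in 12 mice, 7 CTRL and 5 DPAn-6, with 1 poly(A)-selected KAPA library per mouse. The authors aligned the reads with STAR 2.5.3a to GRCm38 and deposited raw, unnormalized counts for each gene. Whether counting used strand is not given in the sources used here, and overlapping antisense genes may have shared reads. Library totals ran from 15208803 to 26520251 counts. Names, exon lengths and GC content came from GENCODE M21 of GRCm38, in which 50339 of 50563 identifiers were matched.

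The test was the quasi-likelihood test of edgeR 4.0.16 (R 4.3.3), after TMM scaling and filterByExpr and without covariates, and p-values were adjusted over all 15688 genes by the Benjamini-Hochberg method. log2 CPM used a pseudocount of 0.5. For single genes, an exact two-sided permutation test used all 792 splits. Correlations used 100000 two-sided permutations. The study's own analysis used limma-voom. Alternatives were DESeq2 1.42.0, limma-voom (limma 3.58.1), other scalings and filters, age or Xist as a covariate, 14-month mice only, a replicate block and each mouse left out. Ttr or the microglial mean as a covariate, Gm42418 out of the totals, and a length and GC trend removed were added after seeing the data. The edgeR script was tested on simulated data.

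The 34 genes and all lists were chosen with earlier results of these data known. Full values are given for genes with an unadjusted p below 0.05 and for Casp2, Casp6, Casp8, Bax and Bcl2, and of each pathway list at most the 3 genes with the smallest p. Groups came from the sample titles. The p-values measure the spread between mice of both sexes, whose sex is given per group only.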

Additional observations from a re-analysis of the deposited data

Results flagged for a closer look

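Of 68 checks of a single mouse far from the rest of its group (34 genes in 2 groups), 9 passed Dixon's limit, where chance gives about 1 in 20. Of these, 8 were in CTRL replicate 3, with log2 CPM of 3.24 for Bax, 2.97 for Bok, 2.94 for Bad, 1.40 for Bbc3, 3.61 for Htra2, 5.60 for Bcl2l13 and 6.77 for Bcl2l2, all below the other CTRL mice, and 5.52 for Bnip3, above them. The ninth was Bcl2 at 4.58 in DPAn-6 replicate 3, the lowest of its group. No member had an interaction between treatment and age at an unadjusted p below 0.05.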

How the results depend on the processing

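Pmaip1 kept its direction in all 27 alternatives and an adjusted p below 0.05 in all but 1, where the mean of the microglial markers as a covariate gave 1.34 (adjusted p = 0.381) and left 0 of the 34 genes and 0 of all genes past that threshold. At an unadjusted edgeR p below 0.05, 1007 genes passed there, Pmaip1 among them. Leaving out 1 mouse at a time moved it between 1.53 and 1.81, with adjusted p up to 0.00245. No other member passed an adjusted p of 0.05 in any alternative.

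Over all genes, 243 were called with all mice, 64 (without DPAn-6 replicate 3) to 953 (without CTRL replicate 3) with 1 mouse left out, 696 by DESeq2, 9 in 14-month mice, 17 with Ttr as a covariate and 531 after removal of the trend on length and GC. The replicate numbers did not pair the mice, since same-numbered mice correlated at −0.125 to 0.220 and 1 of 5 pairs was above 0.1. The replicate block on numbers 1 to 5 gave 69 calls, against 148 for the same mice without it, and Pmaip1 at 1.66 (adjusted p = 0.00444). No mouse correlated best with its own number.

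Pathway genes at an unadjusted p below 0.05 numbered 8 of 57 tested, and 4 of 58 in 14-month mice, beside 14.5% and 8.96% of all genes. Birc6 and Cflar had an unadjusted p below 0.05 in 21 and 22 of 27 alternatives, and Ripk1 in 14. Without CTRL replicate 3, 9 members that passed no test changed sign, with values from −0.06 (Bax) to 0.09 (Casp1). Depth limits Casp4 and Casp12, with 5 to 31 counts per mouse, and replicates measure the spread between 12 mice only.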

Other observations

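Some of these genes are neighbours. On chromosome 9, Casp1 and Casp4 lie 1562 bases apart and Casp4 and Casp12 8646 bases apart on the same strand, and on chromosome 1 Casp8 and Cflar lie 36489 bases apart on the same strand. Casp8 and Cflar both had a log2 fold change of −0.25, and Casp1, Casp4 and Casp12 had −0.09, 0.19 and −0.20.

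Bid and Bcl2l13 overlap on opposite strands over 628 exon bases, 17.7% of the exons of Bid. The exons of Htra2 and Aup1 share 753 bases on opposite strands, and those of Bad and Gpr137 524 bases. In each of these pairs the partner of the apoptosis gene had more counts, with medians of 1161 for Bcl2l13 against 143.5 for Bid, 1143.5 for Aup1 against 408.0 for Htra2, and 1738 for Gpr137 against 332.5 for Bad. Ripk1 shares 241 bases, 2.9% of its exons, with Serpinb6a on the opposite strand, at medians of 97 counts for Ripk1 and 388 for Serpinb6a. Whether shared reads entered the counts of Bid, Htra2, Bad or Ripk1 was not tested.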
